A study of Mus musculus with 12 samples.

Results

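The 37 genes described here belong to the interferon response and to nucleic acid sensing, and they were followed in medulloblastomas (MBs) of XRCC4/p53-deficient mice, in granule neural progenitors (GNPs), the cells from which the granule neurons arise, and in whole cerebellum. The members are a list of genes chosen by their role in this pathway. The rule uses no measured value, but the list was chosen with earlier results of these data known. Of the 37 members, 34 had a probe set that pairs with that gene alone, among 18193 genes measured in all. These 34 were 6 sensors, 2 signaling proteins (an adaptor and a kinase), 2 restraints of the response, 5 transcription factors, 17 effectors and 2 chemokines. The probe set of Isg15 is shared with Gm9706, that of Trex1 is shared with Atrip, and Ifi44 has no probe set named for it in the probe table used here.

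Cells carry sensors for nucleic acids in the wrong place or form. cGAS binds double-stranded DNA in the cytoplasm, including DNA of micronuclei that form from missegregated or broken chromosomes, while MDA5 (Ifih1), TLR3, PKR (Eif2ak2) and ZBP1 respond to double-stranded RNA or to unusual nucleic acid structures. The signals of cGAS, MDA5 and TLR3 converge on the kinase TBK1 and on IRF3, which induce type I interferon, whereas PKR halts translation. Interferon then acts through its receptor, JAK1 and TYK2 on a complex that holds STAT2 and IRF9 and binds the interferon-stimulated response element (ISRE) in the promoters of effector genes such as Ifit1, Gbp2 and Rsad2.

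The MBs came from 8 mice, named by mouse number as in the labels (MB_1187, MB_1197, MB_1206, MB_1207, MB_1224, MB_630, MB_706 and MB_794). In these mice the Xrcc4 alleles are deleted by a Cre recombinase under the Nestin promoter, active in neural progenitors, and p53 is lost throughout the animal (Nestin-Cre p53-/- with Xrcc4 c/- or c/c). There were 2 samples of GNPs (CGNP_2698 and CGNP_2705) and 2 of whole cerebellum (WC_2646 and WC_2647). The study describes both as non-neoplastic tissue matched to the tumors in age and genotype. The labels give neither the age nor the alleles of any of the 12 animals. RNA of each sample was hybridised to 1 Affymetrix mouse array, and the number of arrays limits the precision.

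Levels are log2 values from the authors' normalization, in which a gene without signal sits at a floor of 2.2, and a log2 level of 5 serves below as a mark for clear signal. They can be compared between samples for 1 gene, not between genes. Differences were tested with limma over all 18193 genes, and a gene rose or fell where the adjusted p was under 0.05. The targeted gene Xrcc4 was lower in the MBs (log2 level 2.93 ± 0.39, SD, n = 8) than in normal brain, with a log2 change of -1.16 (adjusted p = 0.00193 from limma). Its means were 3.88 in the GNPs and 4.29 in the cerebellum, below the mark of 5 as well. The highest MB, at 3.571, lay just under the lowest normal sample, at 3.574. All 6 markers of granule progenitors and cell division, such as Atoh1 and Gli1, rose in the MBs against each tissue, and the cerebellum had the highest means of the Purkinje and mature granule neuron markers, although Neurod1 and Zic1 of the latter were also high in the GNPs and MBs. The labels call the MBs tumor tissue, while a legend in the study calls them medulloblastoma cells. Its methods also list cells of MB_630, MB_794, MB_1197, MB_1206, MB_1207 and MB_1224 as kept in culture, and whether these arrays held tissue or cultured cells is not given in the sources used here. MB_706 stood apart in RNA quality: the 3′ probe sets of the actin and Gapdh controls were brighter than the 5′ ones by 2.93 log2 units there, by 0.56 to 0.82 in the remaining MBs and by 0.15 to 0.52 in the normal samples. MB_630 stood apart in makeup, with a log2 level of 8.78 for Gabra6, of mature granule neurons, and of 8.59 for Lum, of connective tissue cells.

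The promoters of several members hold letters that match a core of the ISRE. The stretches below show 6 promoters with a match, picked for it among members that vary between tumors, and Ifit2 without one. They are read from RefSeq (GRCm38.p6) on the strand of each gene, 5′ to 3′, and end at the base before the start of transcription, except for Cxcl10, where the stretch runs from base -250 to base -91 relative to it. Capitals mark each match to the core searched here (GAAA, then 2 bases of any kind, then GAAA) or to its reverse complement, and overlapping matches run together.
Ifit1, chr19:34640729-34640888, plus strand: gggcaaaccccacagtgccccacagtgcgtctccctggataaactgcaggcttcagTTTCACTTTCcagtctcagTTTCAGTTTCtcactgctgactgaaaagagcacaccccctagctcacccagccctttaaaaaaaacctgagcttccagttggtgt
Ifit3, chr19:34583369-34583528, plus strand: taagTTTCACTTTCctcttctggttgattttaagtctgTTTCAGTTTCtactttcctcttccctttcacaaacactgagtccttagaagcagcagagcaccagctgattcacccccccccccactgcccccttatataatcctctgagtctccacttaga
Gbp2, chr3:142620503-142620662, plus strand: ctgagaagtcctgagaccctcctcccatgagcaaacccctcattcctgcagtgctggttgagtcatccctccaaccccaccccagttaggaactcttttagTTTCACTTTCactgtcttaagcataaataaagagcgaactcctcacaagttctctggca
Gbp3, chr3:142559884-142560043, plus strand: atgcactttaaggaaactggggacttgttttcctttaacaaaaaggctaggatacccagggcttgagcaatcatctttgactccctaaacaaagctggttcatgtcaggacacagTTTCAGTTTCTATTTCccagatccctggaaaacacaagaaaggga
Rsad2, chr12:26456453-26456612, minus strand: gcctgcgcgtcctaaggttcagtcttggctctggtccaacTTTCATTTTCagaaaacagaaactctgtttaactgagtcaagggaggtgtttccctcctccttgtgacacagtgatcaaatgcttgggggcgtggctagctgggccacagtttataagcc
Cxcl10, chr5:92348980-92349139, minus strand: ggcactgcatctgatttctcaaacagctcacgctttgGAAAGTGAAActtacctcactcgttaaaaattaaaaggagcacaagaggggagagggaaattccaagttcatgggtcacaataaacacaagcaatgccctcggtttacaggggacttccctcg
Ifit2, chr19:34550534-34550693, plus strand: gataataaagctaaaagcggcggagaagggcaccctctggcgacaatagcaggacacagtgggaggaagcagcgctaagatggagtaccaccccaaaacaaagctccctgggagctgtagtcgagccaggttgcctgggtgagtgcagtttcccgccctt

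Ifit2 is shown beside its neighbours because these letters were not in either of its 2 windows, while Ifit1 and Ifit3 carry 2 matches each. Oasl2, among the members that vary most, had no match either and is not shown. Over windows from 250 bases before to 50 after the start, 11 of the 29 members with a promoter in the RefSeq table held the motif on either strand (37.9%), against 3.99% of all 27025 genes. The 11 were Bst2, Cxcl10, Eif2ak2, Gbp2, Gbp3, Ifih1, Ifit1, Ifit3, Isg15, Rsad2 and Stat2. With the 250 bases before the start alone, 9 of the 29 members (31%) and 3.46% of all genes held it. Dhx58, Zbp1, Usp18, Mx1, Mx2, Ccl5, Parp9 and Parp14 had no entry. A match of letters describes the sequence only.

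GNPs and cerebellum were first pooled as 4 samples of normal brain. Against them 11 members were higher in the MBs, 1 was lower and 22 stayed short of the threshold. Of all genes tested, 20.0% rose and 16.4% fell (36.4% in either direction). The members that rose were Cgas, Ifih1, Mavs, Tbk1, Irf1, Ifit2, Oasl1, Oasl2, Parp9, Dtx3l and Samd9l, and the one that fell was Stat2. Pooling counts the difference between GNPs and cerebellum as spread. In a fit of 3 groups, with the mean of both tissues as normal, 4 further members passed and none was lost. The share of all genes that passed in this fit was not counted, so the gain has no background beside it. Irf9 (adjusted p = 0.038 from limma), Gbp3 (0.039) and Cxcl10 (0.013) were higher, and Eif2ak2 (0.0347) was lower. Against the GNPs alone 9 members rose and 2 fell, with 18.7% and 18.6% of all genes called in these directions (37.3% in either). Against the cerebellum alone 16 members rose and 2 fell, where 22.2% of all genes rose and 21.8% fell (44.0% in either direction). The comparisons share the 8 MBs, and the median log2 difference over all genes was 0 in each. Over the 34 members the median was 1.01 against normal brain, 0.52 against the GNPs and 2.22 against the cerebellum.

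**Figure D1:**
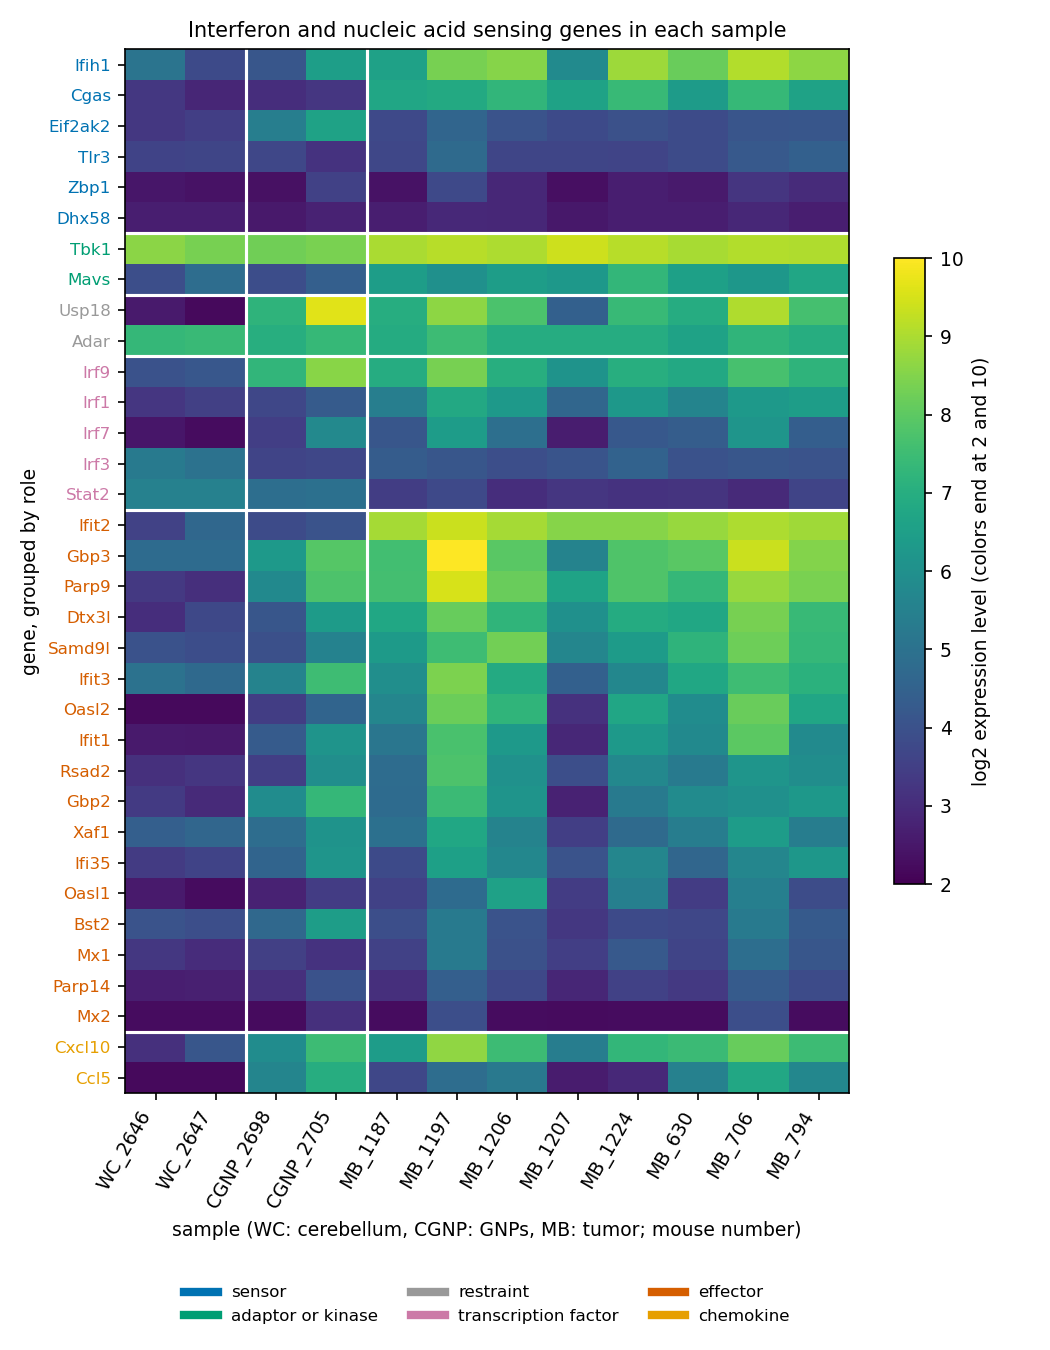
Log2 expression level of the 34 measured members (rows, grouped by role, with gene names colored by role) in the 2 cerebella, 2 GNP samples and 8 MBs (columns, named by mouse number). Ifit2, Cgas and Mavs are bright in each of the 8 MBs, while Ifit1, Oasl2 and Gbp2 are dark in MB_1207 and bright in MB_1197.

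Among the sensors, Cgas and Ifih1 rose in the MBs and the other 4 did not pass against the pooled normal brain. Cgas, the cytoplasmic DNA sensor, stood at 3.04 and 3.27 in the GNPs and at 3.29 and 2.86 in the cerebellum. In the MBs it reached 6.72 in MB_1187, 6.85 in MB_1197, 7.27 in MB_1206, 6.61 in MB_1207, 7.38 in MB_1224, 6.38 in MB_630, 7.37 in MB_706 and 6.60 in MB_794. Every tumor lay above every normal sample, and the lowest tumor was MB_630. The log2 fold change against normal brain was 3.78, a 13.8-fold higher level (standard error 0.208, adjusted p = 3.1e-07 from limma), and it was 3.74 against the GNPs and 3.82 against the cerebellum. Both probe sets of Cgas showed it, with MB means of 7.41 and 6.38 against at most 3.49 in either normal tissue. In a comparison of the single gene, the exact two-sided permutation test gave p = 0.00202, the smallest that 8 samples against 4 allow.

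Ifih1, which encodes the long double-stranded RNA sensor MDA5, varied far more. It stood at 4.14 and 6.49 in the GNPs and at 5.09 and 3.79 in the cerebellum. In the MBs the lowest level was 5.82, in MB_1207, the median 8.44 and the highest 9.08, in MB_706. Only MB_1207 overlapped the normal samples, below CGNP_2705. The log2 fold change was 3.12 against normal brain (adjusted p = 0.00483 from limma) and 3.56 against the cerebellum (adjusted p = 0.0102). That against the GNPs, 2.68, passed narrowly (adjusted p = 0.0459) and was lost without CGNP_2698 (0.464), without either cerebellum (0.057) and without any 1 of 6 tumors, MB_1197, MB_1206, MB_1224, MB_630, MB_706 and MB_794 (0.0669 to 0.072). Without WC_2647 the difference from the remaining cerebellum was lost as well (adjusted p = 0.117).

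Eif2ak2 lay below the GNPs. It encodes PKR, the kinase that halts translation on double-stranded RNA, and its level was 5.41 and 6.62 in the GNPs, 3.28 and 3.50 in the cerebellum, and between 3.77 and 4.61 in the MBs (median 4.02). The MBs lay between the tissues without overlap. It fell by 1.98 on the log2 scale against the GNPs (standard error 0.291, adjusted p = 4.2e-04 from limma). All 3 of its probe sets were lower in the MBs than in the GNPs. The difference from the cerebellum was 0.65 (adjusted p = 0.104 from limma). It passed without either GNP sample (0.03), with the methods' t-test (0.0365 after adjustment) and on the brightest probe set (1.58, adjusted p = 0.0122).

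The remaining sensors had low gene values in every sample. Tlr3, the endosomal double-stranded RNA receptor, ranged from 3.65 to 4.76 in the MBs and from 3.18 to 3.69 in normal brain. Zbp1, a sensor of Z-form nucleic acids, reached 3.78 at most, in MB_1197. This value averages a probe set at the floor with a brighter one, which had an MB mean of 3.51 and spanned 2.88 over the MBs. Dhx58, a regulator of the RNA sensors, stayed between 2.50 and 2.92 in all 12 samples. Its value also averages in probe sets at the floor in the MBs, and its brightest one had an MB mean of 3.80. None of these genes passed in any comparison between MBs and normal tissue, and levels this near the floor hold little information on a change. Tlr3 has a second probe set, which may also detect other transcripts, with means of 5.27 in the MBs, 3.85 in the GNPs and 5.35 in the cerebellum.

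The signaling proteins downstream of the RNA and DNA sensors rose. Mavs, the mitochondrial adaptor of the RNA sensors, stood at 3.90 and 4.41 in the GNPs and at 3.93 and 4.86 in the cerebellum, and ranged from 6.03 in MB_1197 to 7.29 in MB_1224 (median 6.45). All MBs lay above all normal samples, with a log2 fold change of 2.22 against normal brain (standard error 0.243, adjusted p = 3.7e-05 from limma). Its second probe set, left out of the gene's value, showed the same direction, with means of 8.50 in the MBs, 6.23 in the GNPs and 6.68 in the cerebellum. Tbk1, the kinase on which the pathways converge, had a small rise of 0.69 (standard error 0.0836, adjusted p = 7.7e-05). It ranged from 8.96 to 9.39 in the MBs, with 8.28 and 8.38 in the GNPs and 8.62 and 8.36 in the cerebellum. Tbk1 depends on the probe set: on its brighter one, which may also detect other transcripts, the MBs were lower than the cerebellum by 0.29 (adjusted p = 0.00576) and did not differ past the test from normal brain.

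**Figure D2:**
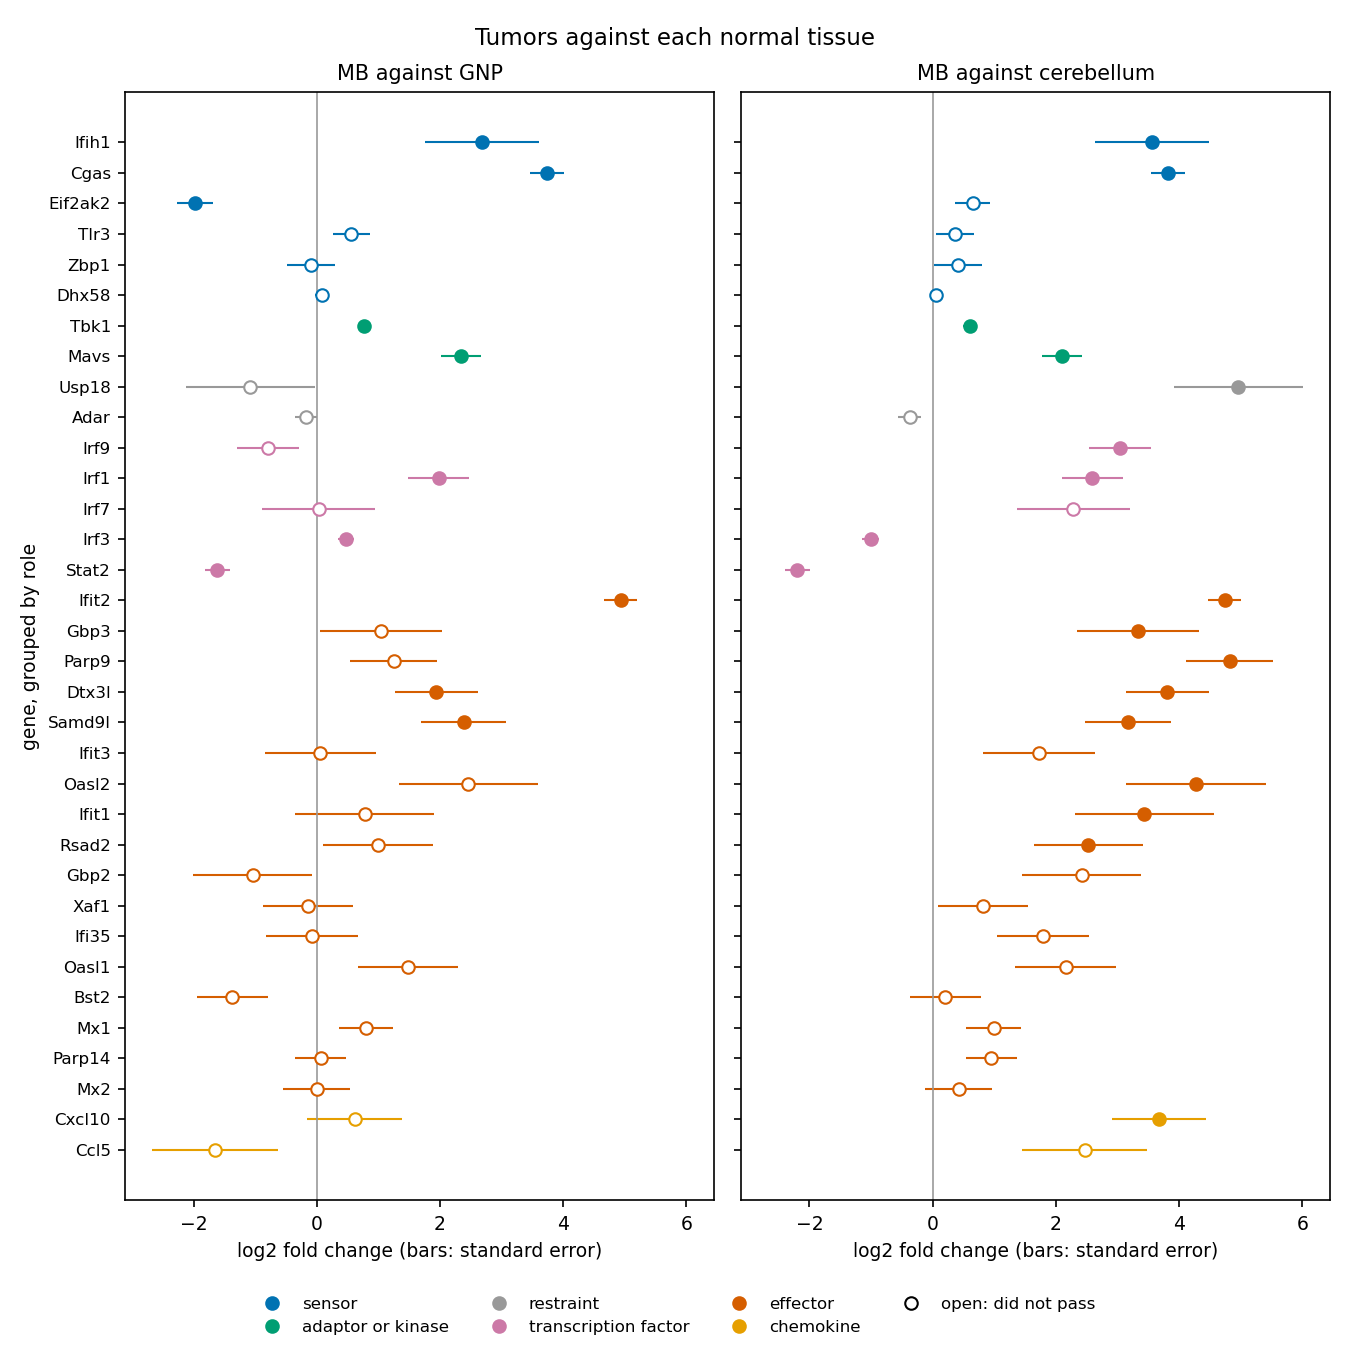
Log2 fold change of each member between the MBs and the GNPs (left) and between the MBs and the cerebellum (right), with standard error bars, colored by role, filled where the member passed the test and open where it did not. Cgas, Mavs and Ifit2 sit at nearly the same value in both panels, while most effectors sit further right against the cerebellum.

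The transcription factors split, with Irf1 up and Stat2 down in each comparison. Irf1, which drives many interferon-stimulated genes, stood at 3.69 and 4.31 in the GNPs and at 3.27 and 3.50 in the cerebellum. Its MB levels ran from 4.63 in MB_1207 through a median of 6.28 to 6.82 in MB_1197, all above the normal samples. The log2 fold change was 2.28 against normal brain (standard error 0.382, adjusted p = 7.0e-04 from limma) and 1.98 against the GNPs, the latter lost without CGNP_2698 (adjusted p = 0.108).

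Stat2, which acts with IRF9 in the complex that binds the ISRE, was the one member with all MBs below all normal samples. Its level was 4.89 and 4.96 in the GNPs and 5.52 and 5.50 in the cerebellum. In the MBs it was 3.47 in MB_1187, 3.78 in MB_1197, 3.04 in MB_1206, 3.28 in MB_1207, 3.16 in MB_1224, 3.19 in MB_630, 2.95 in MB_706 and 3.64 in MB_794. It fell by 1.90 on the log2 scale against normal brain, a 3.74-fold lower level (standard error 0.183, adjusted p = 1.5e-05 from limma), by 1.61 against the GNPs and by 2.19 against the cerebellum. Both of its probe sets were lower in the MBs, at 3.58 and 3.05, than in either tissue, where they ranged from 4.55 to 5.91.

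Irf9, the DNA-binding subunit of the same complex, stood at 7.26 and 8.59 in the GNPs and at 4.03 and 4.17 in the cerebellum. The MBs ranged from 6.11 in MB_1207 to 8.35 in MB_1197 (median 7.02), all above the cerebellum and overlapping the GNPs. It rose by 3.04 against the cerebellum (standard error 0.505, adjusted p = 6.7e-04 from limma), and the difference from the GNPs, -0.79, did not pass (adjusted p = 0.286). Irf3, which carries the signal of TBK1 into the nucleus, lay between the tissues: 3.64 and 3.70 in the GNPs, 3.92 to 4.50 in the MBs, and 5.28 and 5.02 in the cerebellum. It fell by 1.004 on the log2 scale against the cerebellum (adjusted p = 1.7e-04 from limma). Its rise of 0.47 against the GNPs (adjusted p = 0.0198) was lost without CGNP_2698 (0.131) or CGNP_2705 (0.0864) and after either rescaling of the arrays. Irf7, the factor that amplifies interferon production, did not pass in any comparison, with MB levels from 2.65 in MB_1207 to 6.41 in MB_1197, 3.48 and 5.76 in the GNPs, and 2.49 and 2.26 in the cerebellum.

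The 17 effectors had a median log2 difference of 1.76 against normal brain, against 0.31 for the 6 sensors. Against the GNPs the medians were 0.80 for the effectors and 0.32 for the sensors, and against the cerebellum 2.42 and 0.53. The sensor median and its place below the effectors depend on the processing. With genes above a log2 level of 5 in at least 2 samples it was 3.12, 2.68 and 3.56 in the same order, above the effector medians of 1.96, 1.02 and 2.85. With the brightest probe set it was 0.91 against the GNPs, where the effectors had 0.85, and 1.20 against the cerebellum, where they had 2.46. The sensors were split, since Cgas and Ifih1 lay between 2.68 and 3.82 in each comparison and the remaining 4 at 0.65 or below. Of the effectors, 6 rose against normal brain (35.3%, against 20.0% of all genes), 3 against the GNPs (17.6%, against 18.7%) and 8 against the cerebellum (47.1%, against 22.2%), and none fell. The effector median against the GNPs rests on the GNP sample used: without CGNP_2698 it was -0.14, and without CGNP_2705 it was 1.70.

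Ifit2, a member of the family that blocks translation of foreign RNA, changed most among the effectors against normal brain and the GNPs, and Parp9 did against the cerebellum. Ifit2 stood at 3.82 and 4.05 in the GNPs and at 3.58 and 4.68 in the cerebellum. The MBs held 8.92 (MB_1187), 9.37 (MB_1197), 8.91 (MB_1206), 8.56 (MB_1207), 8.56 (MB_1224), 8.75 (MB_630), 9.02 (MB_706) and 8.85 (MB_794). The tumors lay within 0.81 of each other and far above every normal sample, a 28.6-fold higher level than in normal brain (log2 4.84, standard error 0.204, adjusted p = 5.3e-08 from limma). Ifit1 and Ifit3, its neighbours on chromosome 19, varied more among the tumors. Ifit1 stood at 4.29 and 6.13 in the GNPs and at 2.57 and 2.54 in the cerebellum. In the MBs it was 5.13 (MB_1187), 7.70 (MB_1197), 6.32 (MB_1206), 2.88 (MB_1207), 6.28 (MB_1224), 5.80 (MB_630), 7.995 (MB_706) and 5.82 (MB_794). MB_1207 was near the cerebellum, and MB_1197 and MB_706 were far above both GNPs. Ifit1 rose by 3.44 against the cerebellum (adjusted p = 0.0319 from limma), a call lost without either cerebellum (0.143 and 0.144) and narrowly without MB_1206 (0.0506) or MB_1224 (0.0504). For Ifit3 the MBs ranged from 4.46 to 8.43, and no comparison passed.

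**Figure D3:**
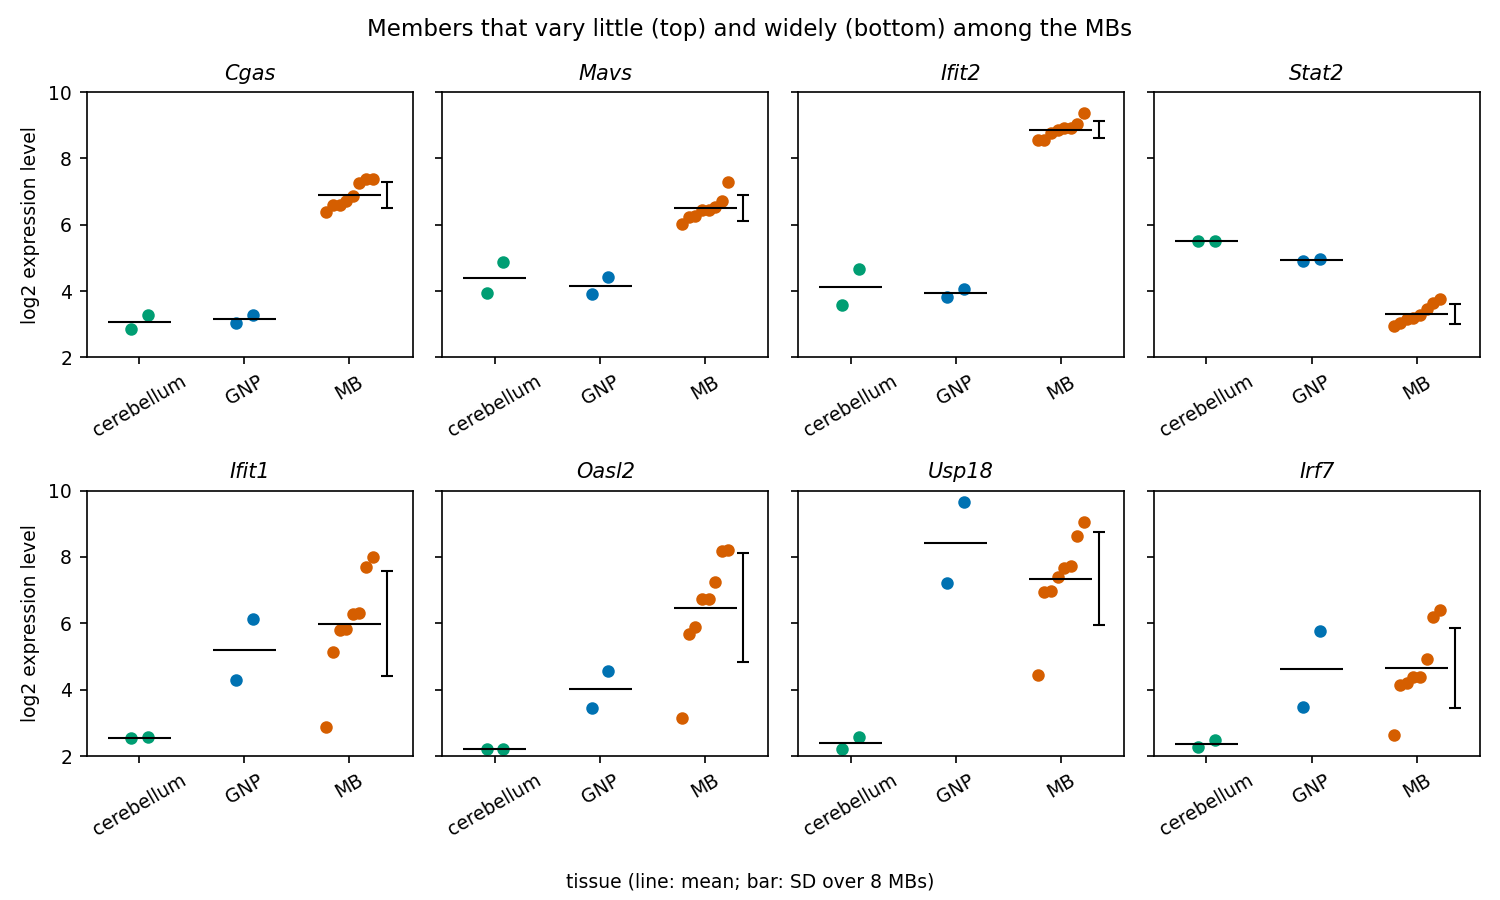
Log2 expression level of 8 members in each sample of cerebellum, GNPs and MBs, with lines at the means and a bar for the SD over the 8 MBs. The MB points of Cgas, Mavs, Ifit2 and Stat2 are tight and clear of the normal samples, while those of Ifit1, Oasl2, Usp18 and Irf7 spread over 3.76 to 5.12 log2 units and overlap the GNPs.

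Parp9 and Dtx3l, which encode a pair of proteins that act together at DNA damage and in the interferon response, rose. Parp9 stood at 5.80 and 7.76 in the GNPs, at 3.33 and 3.07 in the cerebellum and from 6.64 in MB_1207 to 9.52 in MB_1197 (median 7.98). Its rise was 4.82 on the log2 scale against the cerebellum (adjusted p = 2.8e-04 from limma). Against normal brain it was 3.03 (adjusted p = 0.0166), lost without WC_2646 (0.0599) or WC_2647 (0.0593). Dtx3l stood at 4.15 and 6.39 in the GNPs, at 3.04 and 3.74 in the cerebellum and from 6.03 in MB_1207 to 8.36 in MB_706 (median 7.08). Against normal brain it rose by 2.87 (adjusted p = 0.00337) and against the cerebellum by 3.81 (adjusted p = 0.00101). Against the GNPs its adjusted p was 0.0472, and leaving out any single library except CGNP_2705 and MB_1207 ended the call (0.0561 to 0.59).

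Samd9l, an antiviral factor that restrains translation, rose in all 3 comparisons with 5.67 to 8.30 in the MBs (median 7.27), against 3.94 and 5.55 in the GNPs and 4.02 and 3.90 in the cerebellum. Each tumor lay above each normal sample, and the log2 change against normal brain was 2.77 (standard error 0.534, adjusted p = 0.00181 from limma). Its difference from the GNPs, 2.38, was lost without CGNP_2698 (adjusted p = 0.263). Oasl2, related to the oligoadenylate synthetases, was at the floor in both cerebella, at 3.45 and 4.57 in the GNPs, and between 3.14 in MB_1207 and 8.20 in MB_1197. It was at least 19.3-fold higher in the MBs than in the cerebellum (log2 4.27, adjusted p = 0.011 from limma), a call lost without either cerebellum (0.0709 and 0.0698). Its relative Oasl1 passed against normal brain only (log2 1.82, adjusted p = 0.0397), a call lost without any of CGNP_2698, WC_2646, WC_2647, or MB_1197, MB_1224 and MB_706 (0.0642 to 0.106).

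Rsad2 (viperin) and Gbp3, a guanylate-binding protein, rose against the cerebellum by 2.53 (adjusted p = 0.0426 from limma) and 3.34 (adjusted p = 0.0196). Both calls were lost without either cerebellum (0.103 to 0.189), and that of Rsad2 also without any of MB_1206, MB_1224, MB_630, MB_706 and MB_794 (0.0537 to 0.0657). Gbp2 ranged in the MBs from 2.78 in MB_1207 to 7.44 in MB_1197, with 5.88 and 7.34 in the GNPs and 3.36 and 2.95 in the cerebellum, and passed in no comparison between MBs and normal tissue. Neither did Ifi35, Mx1, Mx2, Bst2, Parp14 and Xaf1, whose differences from normal brain lay between -0.58 and 0.89. With the brightest probe set Ifi35 passed against the cerebellum (2.46, adjusted p = 0.0211 from limma), as it did with all its probe sets (0.0296). The values of Parp14 and Xaf1 average in a probe set with little signal, at MB means of 2.29 and 2.50. Their brighter sets exceeded the cerebellum by 1.90 and 1.43 but did not pass. Bst2 (tetherin) stood at 4.69 and 6.44 in the GNPs and at 3.31 to 5.27 in the MBs, with a difference from the GNPs of -1.37 (adjusted p = 0.0949 from limma). It passed as lower without CGNP_2698 (-2.24, adjusted p = 0.0379), with equal array medians (0.0451) and with the filter on level (0.0442).

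Usp18, the protease that shuts off signaling at the interferon receptor, rose against the cerebellum alone. It stood at 7.21 and 9.65 in the GNPs, at 2.58 and 2.201 in the cerebellum, and from 4.44 in MB_1207 through a median of 7.52 to 9.04 in MB_706. The rise was 4.96 on the log2 scale (standard error 1.05, adjusted p = 0.00301 from limma). The difference from the GNPs was -1.08 (adjusted p = 0.539). Adar, which edits double-stranded RNA and so hides it from MDA5, lay between 6.61 and 7.48 in the MBs and between 7.01 and 7.42 in normal brain, and did not pass. Without MB_1197 it passed as lower against normal brain (-0.34, adjusted p = 0.0383 from limma) and the cerebellum (-0.44, adjusted p = 0.0313). Its 3 probe sets disagreed, and on the brightest one it was lower in the MBs than in normal brain (adjusted p = 2.3e-04), the GNPs and the cerebellum.

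The chemokines were present in the GNPs as well. Cxcl10, which attracts activated T cells, stood at 5.88 and 7.48 in the GNPs, at 3.12 and 4.13 in the cerebellum and at 5.40 to 8.68 in the MBs (median 7.47), with a rise of 3.67 against the cerebellum (adjusted p = 0.00282 from limma). Ccl5, which attracts T cells and monocytes, was at the floor in both cerebella, at 5.64 and 6.99 in the GNPs and between 2.62 in MB_1207 and 6.80 in MB_706. It did not pass between the MBs and either tissue.

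Every tumor lay above every normal sample for 6 of the 34 members (Cgas, Mavs, Tbk1, Irf1, Ifit2 and Samd9l), or 17.6%, against 15.5% of all genes, so this share was close to the background. Every tumor lay above both cerebella for 23 members (67.6%), against 24.3% of all genes, and above both GNPs for 7 (20.6%), against 21.2%. Of the effectors, 12 of 17 had all tumors above both cerebella and 2 of 17, Ifit2 and Samd9l, had all tumors above both GNPs.

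The GNPs also differed from the cerebellum. Between these normal tissues 6 members were higher in the GNPs (Eif2ak2, Usp18, Irf9, Parp9, Cxcl10 and Ccl5), 1 was lower (Irf3) and 27 did not pass, against 14.9% and 13.6% of all genes (28.5% in either direction). Both GNPs lay above both cerebella for 20 members (58.8%), against 31.5% of all genes. None of these 7 passed with the methods' t-test after adjustment (0.056 to 0.205), which called Stat2 alone (0.0413). Usp18 differed by 6.04 on the log2 scale with 1 cerebellum at the floor (adjusted p = 0.00671 from limma), a call lost narrowly without CGNP_2705 (0.0565). Ccl5 (at least 17.3-fold, adjusted p = 0.039), Cxcl10 (adjusted p = 0.0402) and Parp9 (adjusted p = 0.0132) were also lost without CGNP_2705 (0.193, 0.237 and 0.105) and without either cerebellum (0.0506 to 0.2). Ccl5 was lost too without CGNP_2698 (0.0685), MB_1197 (0.0555) or MB_1206 (0.0532), and Cxcl10 without MB_1206, MB_1224, MB_630 or MB_794 (0.0545 to 0.0572).

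Markers of other cells differed between these tissues too. The mean of the 6 mesenchymal markers was 6.97 and 7.19 in the GNPs and 4.63 and 4.43 in the cerebellum. Of these, 3 of 6 were higher in the GNPs (50%, against 14.9% of all genes). All 6 were lower in the MBs than in the GNPs (100%, against 18.6% of all genes). The astroglial marker Gfap stood at 9.08 and 8.96 in the GNPs and at 4.997 and 5.03 in the cerebellum, and the myeloid marker Fcer1g at 7.36 and 8.48 against 4.26 and 4.48. The lists of these 2 genes did not follow them. Of 6 astroglial markers 1 was higher in the GNPs (16.7%, against 14.9% of all genes) and 1 lower (16.7%, against 13.6%), close to the background. Of 14 microglia and macrophage markers 2 were higher (14.3%, against 14.9%) and 5 lower (35.7%, against 13.6%), with a median of -0.21. The part of these cells in the members' levels was not tested.

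The 2 GNP samples were unlike each other in these genes. CGNP_2705 exceeded CGNP_2698 for 32 of 34 members, and by more than 1 on the log2 scale for 20 (58.8%), where 1.08% of all genes differed that much in this direction. The gap was 2.48 for Rsad2, 2.45 for Usp18, 2.35 for Ifih1 and 2.28 for Irf7, and it was -0.32 for Mx1 and -0.52 for Tlr3, the exceptions. Among the 17 effectors 16 were higher in CGNP_2705, with a median gap of 1.59. The markers of microglia and macrophages were higher in CGNP_2705 too, with 13 of 14 positive, 6 by more than 1, and a mean level of 4.43 against 3.57. So were those of oligodendrocytes, with 5 of 5 positive, 4 by more than 1, and a mean level of 6.03 against 4.61, led by Mag (6.35 against 3.94). The part of these cells in the gap was not tested. The 2 cerebella showed no such gap, with a median difference of 0.01 over the members. With 1 sample on each side the gap between the GNPs has no test.

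The MBs were graded in the effectors. Over the 8 MBs the mean log2 level of the 17 effectors was 4.27 in MB_1207, 5.22 in MB_1187, 5.53 in MB_630, 5.70 in MB_1224, 6.02 in MB_794, 6.18 in MB_1206, 6.80 in MB_706 and 7.14 in MB_1197. It was 4.26 and 5.63 in the GNPs and 3.39 and 3.43 in the cerebellum. MB_1207 was therefore level with CGNP_2698, and 5 of the 8 tumors exceeded CGNP_2705. MB_1207 was the lowest of the 8 MBs for 15 of 17 effectors and for 24 of 34 members, where it was the lowest for 19.4% of all genes with a single lowest tumor. MB_1197 was the highest for 12 of 17 effectors and 22 of 34 members, against 8.42% of all genes with a single highest tumor, and MB_706 for 3 of 17, against 14.8%. MB_1197, at the top, had a 3′ over 5′ log2 difference of 0.59 in the RNA controls, and the part of RNA quality in the values of MB_706 was not tested.

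**Figure D4:**
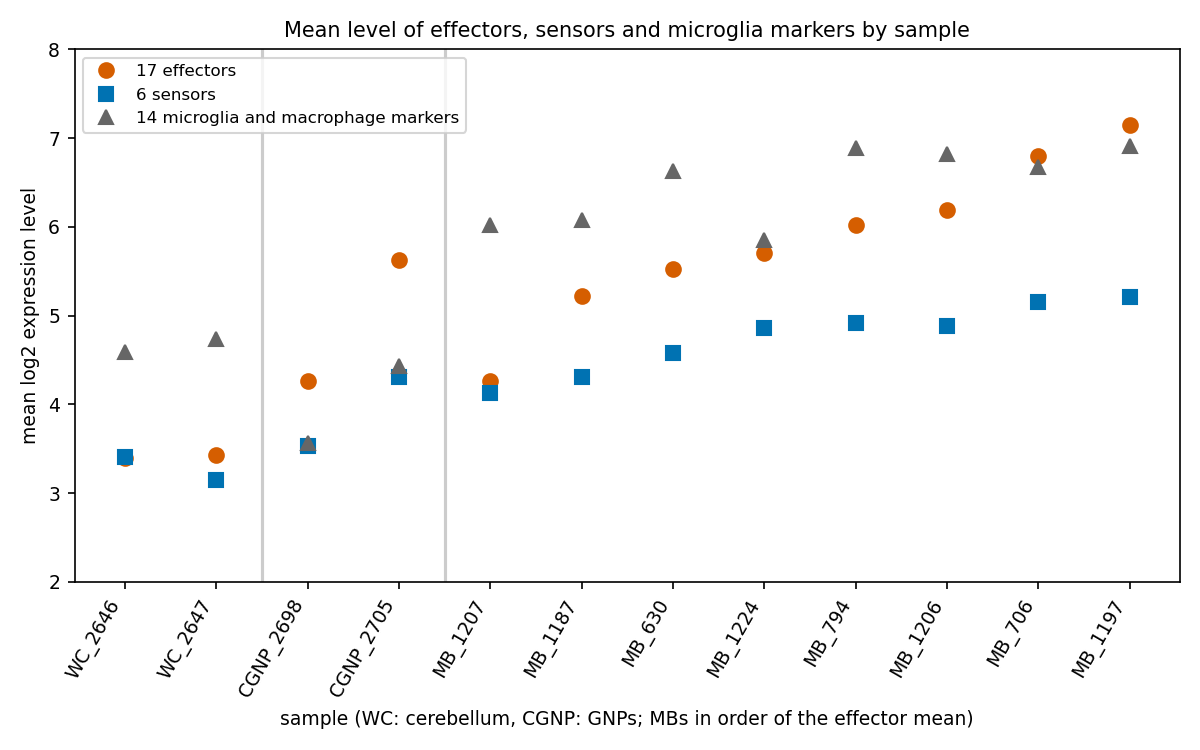
Mean log2 expression level of the 17 effectors, the 6 sensors and the 14 measured microglia and macrophage markers in each sample, with the MBs placed in order of the effector mean. The effector mean climbs from 4.27 in MB_1207 to 7.14 in MB_1197, the sensor mean from 4.12 to 5.21, and the microglia mean is above that of every normal sample in all 8 MBs.

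The sensors were graded less in their mean. Their mean was 4.12 in MB_1207, 4.30 in MB_1187, 4.57 in MB_630, 4.87 in MB_1224, 4.89 in MB_1206, 4.91 in MB_794, 5.15 in MB_706 and 5.21 in MB_1197, with 3.53 and 4.31 in the GNPs and 3.41 and 3.15 in the cerebellum. Among the sensors Ifih1 spanned 3.26 over the MBs and Zbp1 1.44 (2.88 on its brighter probe set). Tlr3 spanned 1.11, and 3.15 on its second set, which may also detect other transcripts. Cgas spanned 1.003 (1.26 on its brighter set), Eif2ak2 0.84 (1.49 on its brightest set) and Dhx58 0.42 (1.26 on its brightest set). The values of Zbp1 and Dhx58 average in probe sets at the floor in the MBs, which narrows the span of the sensor mean. The tumor with the lowest effectors, MB_1207, had a Cgas level of 6.61, close to the 6.85 of MB_1197, and a Mavs level of 6.27, above the 6.03 of MB_1197. The remaining sensors were lower in MB_1207 than in MB_1197. The levels were 5.82 against 8.35 for Ifih1, 2.34 against 3.78 for Zbp1 and 2.50 against 2.92 for Dhx58. They were 3.79 against 4.61 for Eif2ak2 and 3.68 against 4.76 for Tlr3.

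Of the 21 members with a mean MB level above 5, 16 spanned more than 2 log2 units over the tumors and 10 more than 3, where 8.22% and 2.68% of 8289 such genes did. The median span was 3.57 for the 12 effectors among them and 0.81 for all such genes. The widest spans were those of Ifit1 (5.12), Oasl2 (5.07), Gbp3 (4.76), Gbp2 (4.66) and Usp18 (4.60), and the narrowest that of Tbk1 (0.43), while Ifit2 spanned 0.81, Cgas 1.003 and Mavs 1.27. This order depends on the averaging of probe sets. The brighter set of Xaf1 spanned 5.61, while its gene value, averaged with a set of little signal, spanned 3.27. Of the 10 measured members with the ISRE letters in the promoter 7 spanned more than 2 (median 3.57), and of the 16 with a promoter but no such letters 9 did (median 2.21).

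**Figure D5:**
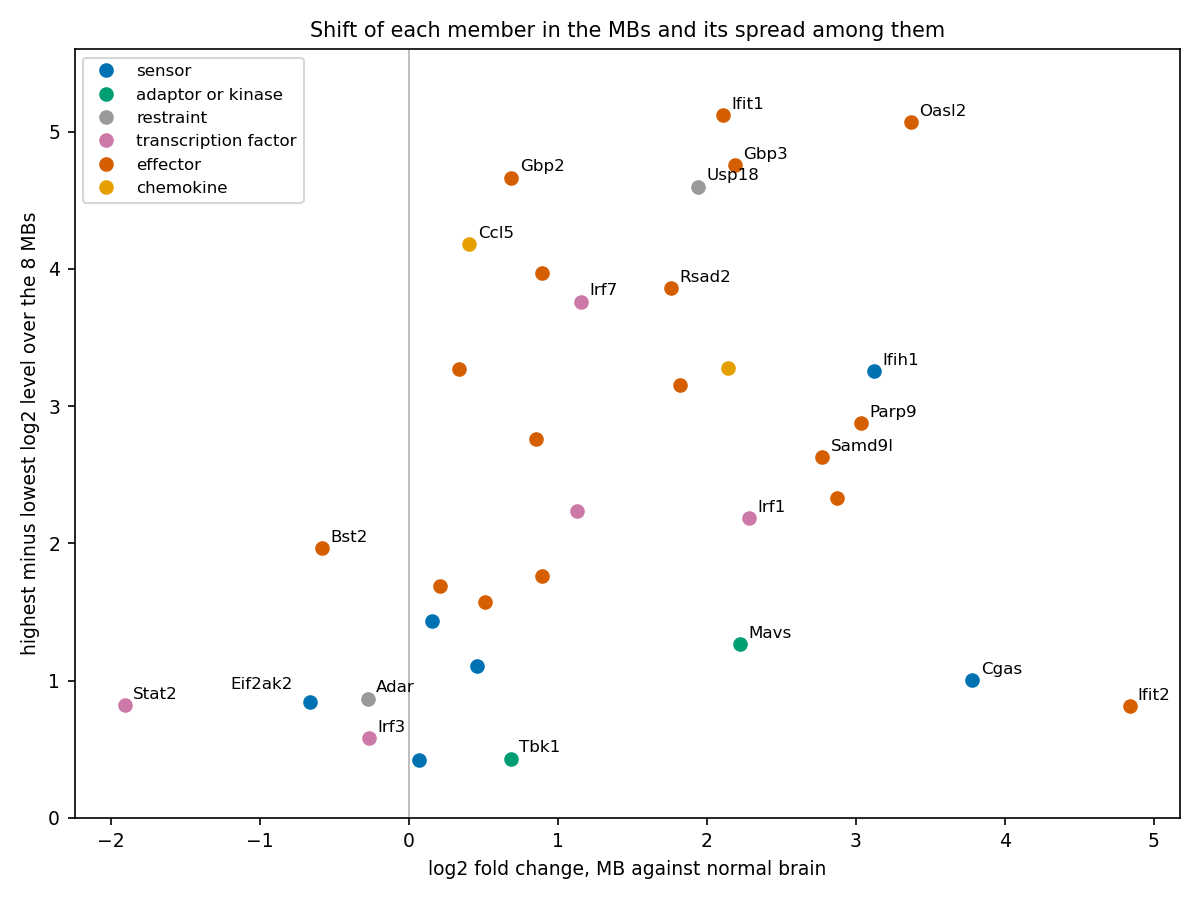
Span of each member over the 8 MBs (highest minus lowest log2 level, vertical) against its log2 fold change between MBs and normal brain (horizontal), colored by role. Ifit2, Cgas and Mavs sit at the lower right with a large shift and a narrow span, and Ifit1, Oasl2, Gbp3, Gbp2 and Usp18 lie at the top with spans of 4.60 to 5.12.

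The spread over the MBs decided several calls. Without MB_1207, Ifit1, Rsad2, Mx1, Gbp3 and Cxcl10 passed against normal brain (adjusted p = 0.0202 to 0.04 from limma), Irf7, Gbp2, Oasl1, Ccl5 and Parp14 passed against the cerebellum (0.00574 to 0.0492), and Oasl2 passed against the GNPs (0.00991). Without CGNP_2705, Ifit1, Rsad2, Gbp3, Cxcl10 and Irf9 passed against normal brain (0.0109 to 0.0451).

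The interferon genes themselves gave no signal. Ifnb1, Ifna2, Ifna4 and Ifng were at the floor in all 12 samples, with no value above 2.24. Other genes of the pathway were taken from 5 further lists, of which 56 of 59 genes were measured. Against normal brain 16 rose, 3 fell and 37 did not pass, with 6, 3 and 47 against the GNPs and 17, 3 and 36 against the cerebellum, beside the backgrounds given above.

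Of the 7 measured receptors and receptor kinases 1 rose against normal brain (14.3%, against 20.0% of all genes) and 2 fell (28.6%, against 16.4%). Ifngr1, a chain of the interferon gamma receptor, rose by 1.12 against normal brain (adjusted p = 0.0023 from limma), while the partner chain Ifngr2 fell by 1.94 (adjusted p = 6.8e-05) and Jak1, the kinase on both receptors, fell by 1.05 (adjusted p = 6.0e-04). For Ifngr2 the MBs ranged from 3.20 to 3.76 and the normal samples from 4.83 to 6.14, without overlap. The type I receptor chains Ifnar1 and Ifnar2 stood at 6.07 to 6.78 and 6.10 to 6.65 in the MBs, against 6.50 to 6.87 and 5.95 to 6.48 in normal brain, and did not pass. The whole list had a median of -0.14 against normal brain.

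Of 11 other sensing and signaling genes 3 rose against normal brain (27.3%, against 20.0% of all genes), 1 rose against the GNPs (9.09%, against 18.7%) and none fell. Sting1, which relays the signal of cGAS, ranged from 4.27 in MB_1207 to 6.37 in MB_1206, against 3.69 and 3.88 in the GNPs and 3.0003 and 3.16 in the cerebellum, a rise of 1.37 (adjusted p = 0.0133 from limma). Irf8, a factor of the myeloid lineage and of interferon responses, rose by 1.56 (adjusted p = 0.00144), with 3.50 to 4.97 in the MBs and at most 2.66 in normal brain. All 4 measured nucleases and nucleotide regulators, whose loss is known to trigger interferon, rose against normal brain (100%, against 20.0% of all genes). Against the GNPs 3 of the 4 rose (75%, against 18.7%). Rnaseh2b, a subunit of the enzyme that removes ribonucleotides from DNA, rose by 2.52 (adjusted p = 2.2e-05) and the catalytic subunit Rnaseh2a by 1.90 (adjusted p = 1.4e-05), both without overlap. Their spans over the MBs were 0.64 and 1.06, narrow beside those of the effectors.

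Among 30 other interferon-stimulated genes 8 rose against normal brain, 1 fell and 21 did not pass, with a median of 1.09. The share that rose was 26.7%, against 20.0% of all genes. Against the GNPs 1 rose (3.33%, against 18.7%) and 1 fell, and against the cerebellum 10 rose (33.3%, against 22.2%). Socs3, an inhibitor of cytokine receptors that is also induced by other cytokines, rose by 4.21 (adjusted p = 5.3e-07 from limma), with 2.31 to 3.25 in normal brain and 6.36 to 7.69 in the MBs. Gbp7, a guanylate-binding protein, rose by 2.51 (adjusted p = 0.0246), and Ifitm1, a membrane protein that restricts virus entry, fell by 1.60 (adjusted p = 0.0212). MB_1207 was the lowest for 19 of the 25 genes of this list with a single lowest tumor, and MB_1197 the highest for 16 of 29 with a single highest tumor.

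Most markers of microglia and macrophages rose in the MBs, while in the GNPs 2 were higher and 5 lower than in the cerebellum. Of 14 measured, 9 rose against normal brain (64.3%, against 20.0% of all genes), 10 against the GNPs (71.4%, against 18.7%) and 8 against the cerebellum (57.1%, against 22.2%), led by C1qc (4.58) and C1qb (4.49), complement genes of these cells. Their mean log2 level was 5.85 to 6.92 in the MBs, 3.57 to 4.43 in the GNPs and 4.59 to 4.74 in the cerebellum, with Tmem119, Itgam and Trem2 at 3.48 or below in all samples. In bulk RNA, fewer or more cells of a type and less or more RNA per cell cannot be told apart. Within the MBs, in rising order of the effector mean, it was 6.02 in MB_1207, 6.08 in MB_1187, 6.63 in MB_630 and 5.85 in MB_1224. In the MBs higher in effectors, in the same order, it was 6.89 in MB_794, 6.82 in MB_1206, 6.67 in MB_706 and 6.92 in MB_1197. The part of these cells in the level of the members was not tested. The 7 measured markers of T and NK cells had means of 2.21 to 2.25 in the MBs, at the floor. Astroglial markers had their lowest means in MB_1207 (4.95) and MB_1224 (5.39), against 6.27 to 6.89 in the other MBs. MB_1207 also had the lowest means of the oligodendrocyte (3.22), Purkinje (3.49) and mature granule neuron markers (8.29) among the MBs, whose ranges reached 5.30, 6.75 and 10.4. The part of these cells was not tested either.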

How the data were processed

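Array scans were read by the authors with the R package affy and normalized by GCRMA, so each deposited log2 value stands for 1 probe set on 1 array. The build and annotation behind them were not given in the sources used here. The table holds 45101 probe sets: 64 are array controls and were dropped, 34945 name a single gene, 932 name more than 1 and 9160 name none. A gene's value was the mean log2 of its own probe sets whose names lack the suffix s or x (290 genes have only such sets). No level filter was set on the 18193 genes. A group counted as at the floor (2.201) where all its samples lay within 0.25 of it.

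Samples were grouped by their labels. Tests used limma 3.58.1 (lmFit and eBayes) in R 4.3.3, two-sided, at 0.05 after Benjamini-Hochberg adjustment over the 18193 genes, in a fit of 8 MBs against 4 normal samples, pooled as in the study, and a fit of 3 groups. Replicates are separate mice by the numbers in their labels. The exact permutation test enumerated 495 splits. The code was tested on simulated data. Alternatives were other rules for probe sets, quantile normalization, equal array medians, a trend and robust spread, array weights, a filter on level, the methods' t-test, 3 groups in place of 2, and leaving out each sample. Leaving out MB_706 and MB_630 together was added after seeing the data. The members, roles and lists were chosen with earlier results of these data known. Named genes are the members with the largest rises and falls past the test in each role, up to 3 each way, and up to 2 each way in every other list. Further members are named to account for all, and genes picked for their spread among the MBs were chosen after their values were seen. Of 124 genes in 14 other lists, 9 were not measured. The lists cover interferon genes, receptors, sensing and signaling, nucleases, interferon-stimulated genes, and markers of microglia, T and NK cells, endothelium, mesenchyme, astroglia, oligodendrocytes, Purkinje cells, mature granule neurons and granule progenitors. Of the lists not described above, endothelial markers had 0 of 6 higher and 0 lower against normal brain, mesenchymal markers 3 of 6 lower, astroglial markers 2 of 6 lower, oligodendrocyte markers 2 of 5 lower, Purkinje markers 1 of 4 lower and mature granule neuron markers 3 of 5 lower. Of all genes 20.0% were higher and 16.4% lower in that comparison.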

Additional observations from a re-analysis of the deposited data

Results flagged for a closer look

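In 3 of the 34 members tested, 1 tumor stood apart from the other 7 MBs by a gap too wide for its range in Dixon's test, where chance flags about 1 in 20. Usp18 had its lowest value, 4.44, in MB_1207, with 6.94 as the next lowest. Tbk1 had its highest value, 9.39, in the same tumor, with 9.15 as the next highest. Eif2ak2 had its highest value, 4.61, in MB_1197, with 4.14 as the next highest.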

How the results depend on the processing

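No paired analysis was possible because the groups share no mouse number. Between 10 and 17 members passed against normal brain when single samples were left out, 7 to 12 against the GNPs, 13 to 23 against the cerebellum, and 3 to 8 for GNPs against cerebellum. The share of all genes that passed in each of those fits was not counted, so these ranges have no background beside them. The sensor median ranged over the same fits from 0.20 to 0.39 against normal brain, 0.26 to 0.40 against the GNPs, 0.42 to 0.58 against the cerebellum and -0.06 to 0.65 between the normal tissues. The effector median ranged from 1.47 to 2.04, -0.14 to 1.70, 2.15 to 2.78 and 0.69 to 2.45 in the same order. With the probe set of highest signal the sensor median was 0.91 against the GNPs and 1.20 against the cerebellum, and Tbk1 reversed against the cerebellum (-0.29). With genes above a log2 level of 5 in at least 2 samples the sensor medians were 3.12, 2.68, 3.56 and 0.87, because only Cgas, Ifih1 and Eif2ak2 remained. The methods' t-test with adjustment called 1 member between GNPs and cerebellum, Stat2, and none of the 7 called by limma. No other called member changed sign under these settings. Without MB_706 and MB_630 together 5 member calls were lost and none gained: Oasl1 against normal brain (adjusted p = 0.0562 from limma), Ifih1 (0.1) and Dtx3l (0.076) against the GNPs, and Ifit1 (0.0607) and Rsad2 (0.0835) against the cerebellum. The small number of arrays and levels near the floor limit what can be seen for Dhx58, Zbp1, Mx2 and Tlr3.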
